A study of Homo sapiens with 3 samples.

Results

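The genes described here are 10 factors of the Wnt pathway: the ligand WNT5A, the destruction complex scaffolds AXIN1 and APC, beta-catenin (CTNNB1), the DNA-binding partners LEF1, TCF7, TCF7L1 and TCF7L2, and the feedback genes AXIN2 and DKK1. All of their probe sets that the array annotation assigns to a single gene were taken, which gave 27 probe sets for 9 genes out of 54675 probe sets and 19775 genes in all. TCF7 had no such probe set and was not analysed here. The study measured UM-UC-3, a human bladder cancer cell line, on 1 Affymetrix array per group: cells given DANCR siRNA1, cells given DANCR siRNA2, and cells given a negative control siRNA. All 3 groups received 75 nM siRNA by lipid transfection and were compared at 48 h. DANCR is a long noncoding RNA, and the labels list target points 390 and 433 for its siRNAs under a tag that names the WDR5 coding sequence. With 1 array per group no spread between replicates was available, so every difference below is a size on these arrays and not a test, and the number of arrays limits the precision.

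In the canonical Wnt pathway, AXIN and APC hold beta-catenin in a complex that marks it for degradation. A Wnt ligand bound to Frizzled and LRP receptors stops that complex, and beta-catenin then enters the nucleus and binds LEF1 or a TCF protein on the promoters of target genes. AXIN2 and DKK1 are induced by this signal and dampen it, AXIN2 as a scaffold in the cytoplasm and DKK1 as a secreted blocker of LRP receptors. WNT5A mostly signals without beta-catenin, through ROR receptors. Much of this control acts on the beta-catenin protein, which an expression array does not measure.

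The siRNAs that define the groups are given as the labels list them, read as 5′ to 3′, with the closing pair of T bases in capitals.
DANCR siRNA1: gcguacuaacuuguagcaaTT
DANCR siRNA2: gagcuagagcagugacaauTT
control siRNA: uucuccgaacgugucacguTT

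Promoter windows of 300 bases (250 before and 50 after a start site) came from RefSeq on GRCh38.p14. Windows were found for 9 of the 10 genes, all but AXIN2, with 14 windows in all. They were searched for CTTTGA and CTTTGT, the core letters that LEF1 and TCF proteins bind, on both strands. Of all 35116 windows of this length, 26.2% held at least 1 match, and 3 of the 14 windows did so, in TCF7, DKK1 and TCF7L2. The LEF1 window is shown because LEF1 was the gene with the largest difference below, and it held neither motif. The DKK1 window is shown because it held 3 matches, in capitals, a number reached or passed in 0.886% of all windows. A match is a description of the letters and not a binding site.
LEF1, chr4:108166252-108166551, minus strand: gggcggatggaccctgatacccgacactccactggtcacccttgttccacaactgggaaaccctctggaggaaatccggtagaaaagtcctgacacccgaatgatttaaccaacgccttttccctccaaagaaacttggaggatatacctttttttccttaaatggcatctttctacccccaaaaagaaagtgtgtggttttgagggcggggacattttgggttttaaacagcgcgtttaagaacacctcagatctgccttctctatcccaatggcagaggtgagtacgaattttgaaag
DKK1, chr10:52314031-52314330, plus strand: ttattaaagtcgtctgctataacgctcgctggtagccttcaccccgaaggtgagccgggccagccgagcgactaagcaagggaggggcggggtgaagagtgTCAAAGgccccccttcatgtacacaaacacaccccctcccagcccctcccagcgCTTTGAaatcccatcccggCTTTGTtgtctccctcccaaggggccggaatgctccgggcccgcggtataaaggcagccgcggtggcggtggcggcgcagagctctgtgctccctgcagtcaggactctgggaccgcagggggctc
In the DKK1 window the matches began 149, 95 and 76 bases before the start site.

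The deposited values are intensities on a linear scale, and the median of all values, 10.5, served as a floor to which lower values were raised before taking ratios. A gene was represented by its probe set of highest mean intensity and was taken as measured when any array exceeded the floor, as in 12436 genes. DANCR itself had an intensity of 116 with siRNA1 and 126 with siRNA2, against 671 with the control siRNA, so 17.3% and 18.8% of the control value remained. The median of each array was 10.5, and 32.1% of all probe sets had the same value on all 3 arrays, which makes many ratios exactly 0. The ratio of 3' to 5' probe sets of ACTB, a sign of RNA or label integrity, was 11.8 with siRNA1, 14.4 with siRNA2 and 11.9 with the control, and that of GAPDH was 1.29, 1.35 and 1.25. Of 14 urothelial and epithelial markers, 6 lay above the floor on all arrays, and the list summed to 842 with siRNA1, 1172 with siRNA2 and 1455 with the control, most of it from KRT18 at 711, 1022 and 1315, while CDH1, EPCAM, KRT5 and all uroplakins tested were below it. Of 6 mesenchymal markers, 5 lay above the floor, with VIM at 4412, 4861 and 5322. Leukocyte marker intensities summed to 45.1, 40.7 and 46.1 over 4 genes. PTPRC and CD14 lay below the floor, and CD3E and CD79A above it on all arrays. Endothelial marker intensities summed to 40.3, 51.7 and 67.1 over 5 genes, with CDH5, VWF and KDR below the floor. PECAM1 lay above it on all arrays, at 19.9, 22.6 and 25.0, and TIE1 had 10.1, 19.5 and 30.9. The part of these markers in the results below was not tested.

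The first question was which of these genes differed from the control with each siRNA. LEF1 was the only measured gene of the 9 at least 2-fold from the control, and only with siRNA1, where it was lower. Beta-catenin itself was at nearly the same value on all 3 arrays. TCF7L1, TCF7L2, DKK1 and AXIN1 were highest on the siRNA2 array, and none of them reached 2-fold there. With siRNA1, 1 of 9 genes passed the 2-fold threshold, where 3.62% of all measured genes did. With siRNA2, 0 of 9 passed it, where 3.36% of all measured genes did. Accordingly 0 of 9 passed it the same way with both siRNAs, a state that 0.997% of all measured genes reached. Both comparisons use the same control array. The genes were chosen with earlier results of these data known, so these counts beside the shares are not a test. In such bulk RNA, fewer cells of a type and less RNA per cell cannot be told apart.

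**Figure D1:**
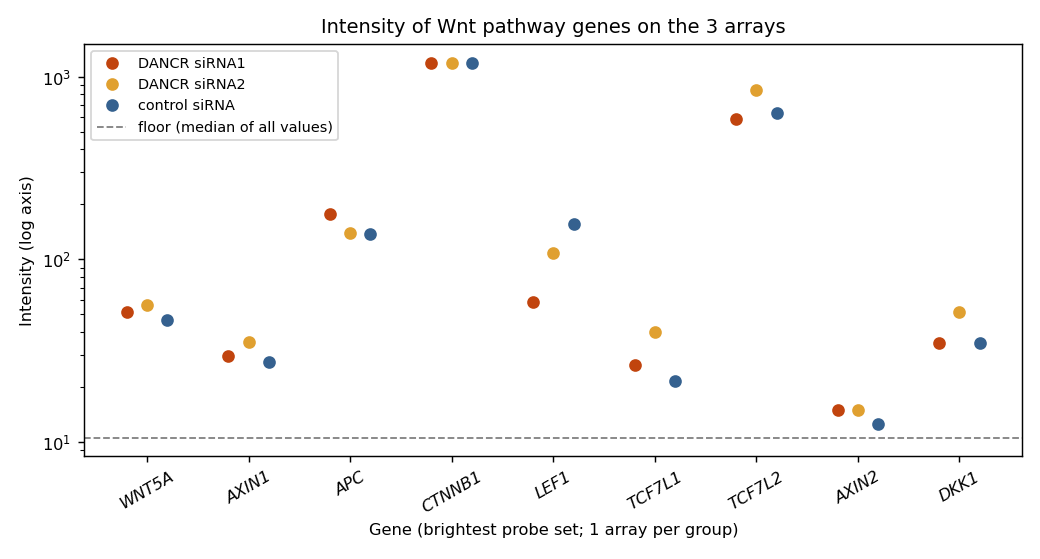
Intensity (log axis) of the brightest probe set of each of the 9 measured genes, with 1 point for each array, ordered DANCR siRNA1, DANCR siRNA2 and control siRNA within a gene; the dashed line is the floor of 10.5. LEF1 stands apart with 58.2, 108 and 157, while the 3 CTNNB1 points lie between 1184 and 1194.

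LEF1 encodes a high mobility group protein that brings beta-catenin to target genes and is itself a Wnt target in several tissues. Its brightest probe set, 221558_s_at, had an intensity of 58.2 with siRNA1 and 108 with siRNA2, against 157 with the control siRNA. The siRNA1 array was the lowest, the control array the highest, and the siRNA2 array lay between them. The siRNA1 value was 37.2% of the control, a log2 ratio of -1.43 or 2.69-fold lower, and the siRNA2 value was 69.1% of the control, a log2 ratio of -0.53. Only 0.499% of measured genes had a ratio as low or lower with siRNA1, which was 62 genes, and 5.07% had one as low or lower with siRNA2. Among all measured genes, 1.75% were at least 2-fold lower with siRNA1. LEF1 was among genes chosen with earlier results of these data known, so its place among all genes is not a test.

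The other LEF1 probe sets did not show this difference, but they were too dim to show a 2-fold lower value above the floor. Probe set 221557_s_at had 12.5 on all 3 arrays, just above the floor. Probe set 210948_s_at lay below the floor, at 3.73 with siRNA1, 4.20 with siRNA2 and 4.20 with the control. The LEF1 difference therefore rests on 1 of 3 probe sets, and the others could neither show nor contradict it. By the median over the 3 the log2 ratio was 0.00 with both siRNAs. That median could not reach 2-fold lower, because the dim probe sets lay near or below the floor, so no conclusion is drawn from it. All 3 have an _s_at suffix, which marks probes that can match more than 1 transcript, so LEF1 had no value when such probe sets were left out.

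**Figure D2:**
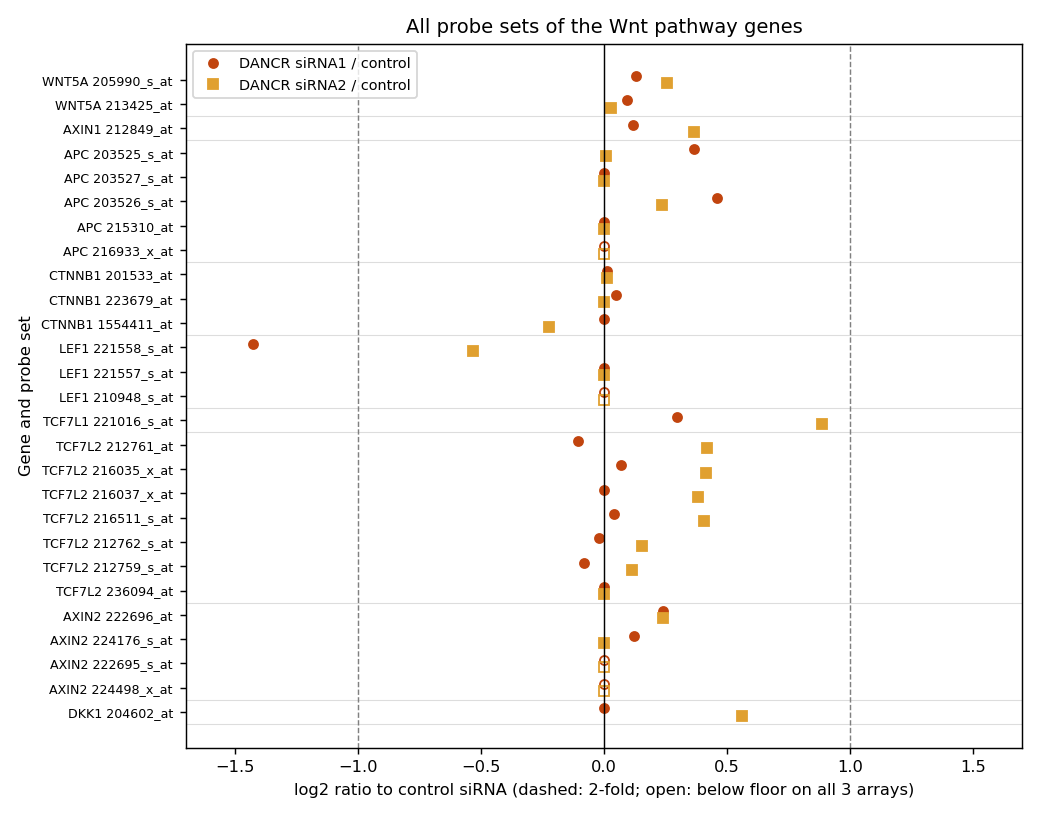
Log2 ratio to the control siRNA array for each of the 27 probe sets, with circles for DANCR siRNA1 and squares for DANCR siRNA2; open symbols mark the 4 probe sets below the floor on all 3 arrays and dashed lines mark 2-fold. The single probe set outside the dashed lines is LEF1 221558_s_at with siRNA1, at -1.43.

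The 5 genes whose pair of ratios lay nearest to that of LEF1 were AHNAK, POLD1, RELL1, SMAD3 and SLCO4A1, by Euclidean distance over the 2 log2 ratios among 11887 other genes above the floor on all 3 arrays. Their distances were 0.05, 0.06, 0.08, 0.09 and 0.09 on the log2 scale. AHNAK, a very large scaffold protein, was nearest, with 274 with siRNA1 and 495 with siRNA2, against 715 with the control. SMAD3, which carries TGF-beta signals to the nucleus, had 154 with siRNA1 and 264 with siRNA2, against 393 with the control. POLD1, the catalytic subunit of DNA polymerase delta, had 35.0 with siRNA1 and 68.7 with siRNA2, against 95.5 with the control. Likeness over 3 arrays is a loose measure and describes the order of the values only.

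TCF7L2, known as TCF4, is a main partner of beta-catenin in epithelia and was the TCF gene with the most probe sets here. Its brightest probe set, 212761_at, had 589 with siRNA1 and 846 with siRNA2, against 633 with the control siRNA. The siRNA2 array was the highest, and the siRNA1 array lay slightly below the control. The log2 ratio was -0.11 with siRNA1 and 0.42 with siRNA2, or 1.34-fold higher with siRNA2. A further 3 probe sets of moderate intensity gave close values with siRNA2: 0.41 for 216035_x_at, 0.38 for 216037_x_at and 0.40 for 216511_s_at. With siRNA2, 6 of the 7 TCF7L2 probe sets were higher than the control and 1 was equal. With siRNA1, 2 were higher, 3 lower and 2 equal, with all ratios between -0.11 and 0.07. These probe sets measure transcripts of 1 gene and are not replicates of the condition. Of all measured genes, 14.8% had a ratio as high or higher than TCF7L2 with siRNA2.

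TCF7L1, known as TCF3, mainly represses target genes when no beta-catenin is bound. Its single probe set, 221016_s_at, had 26.5 with siRNA1 and 39.8 with siRNA2, against 21.5 with the control siRNA. Both siRNA arrays were above the control, the siRNA2 array by more. The log2 ratios were 0.30 and 0.89, and the siRNA2 value, 1.85-fold above the control, was the nearest of the 9 genes to the 2-fold threshold from below. Of all measured genes, 3.30% had a ratio as high or higher with siRNA2. This probe set lies close to the floor, and raising the floor to the 70th percentile lowered its siRNA2 ratio to 0.42.

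CTNNB1, beta-catenin, links cadherins to actin at the membrane and carries the Wnt signal in the nucleus. Its brightest probe set, 201533_at, had 1194 with both siRNAs, against 1184 with the control siRNA. The 3 arrays differed by less than 1%, and the log2 ratio was 0.01 with each siRNA (-0.0133 and -0.00322 under quantile normalisation). The second probe set, 223679_at, had 59.1 with siRNA1 and 57.2 with siRNA2, against 57.2 with the control. The dimmest, 1554411_at, had 15.9 with siRNA1 and 13.6 with siRNA2, against 15.9 with the control, a log2 ratio of -0.22 with siRNA2. No CTNNB1 probe set was further than that from the control.

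APC, the tumour suppressor that scaffolds beta-catenin destruction, was higher with siRNA1 on its brightest probe set. This probe set, 203525_s_at, had 178 with siRNA1 and 139 with siRNA2, against 138 with the control siRNA. The siRNA1 array stood above the others, and the siRNA2 and control arrays were nearly equal. The log2 ratios were 0.36 and 0.01. Probe set 203526_s_at had 26.6 with siRNA1 and 22.9 with siRNA2, against 19.4 with the control, or 0.46 and 0.24 on the log2 scale. A further 2 probe sets above the floor, 203527_s_at at 32.5 and 215310_at at 13.5, had the same value on all 3 arrays, and the fifth lay below the floor. By the median over probe sets the APC ratio was 0.00 with siRNA1.

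AXIN1, the limiting scaffold of the destruction complex, had 29.6 with siRNA1 and 35.2 with siRNA2, against 27.3 with the control siRNA on its single probe set, 212849_at. The order matched that of TCF7L1, with siRNA2 highest and the control lowest, at log2 ratios of 0.12 and 0.37. WNT5A, on probe set 205990_s_at, had 51.2 with siRNA1 and 55.9 with siRNA2, against 46.8 with the control, or 0.13 and 0.26 on the log2 scale. Its second probe set, 213425_at, lay just above the floor and gave 0.09 and 0.03.

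The feedback genes AXIN2 and DKK1 are commonly read as signs of beta-catenin activity. AXIN2 was close to the floor on all arrays. Its brightest probe set, 222696_at, had 14.9 with both siRNAs, against 12.6 with the control siRNA, a log2 ratio of 0.24 with each. Probe set 224176_s_at had 12.5 with siRNA1 and 11.5 with siRNA2, against 11.5 with the control, and the remaining AXIN2 probe sets lay below the floor. These AXIN2 values are near the lower limit used here. DKK1, on its single probe set 204602_at, had 34.9 with siRNA1 and 51.5 with siRNA2, against 34.9 with the control. The siRNA2 array alone stood above the others, by a log2 ratio of 0.56 or 1.48-fold. Of all measured genes, 9.37% had a ratio as high or higher with siRNA2.

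Across the 9 genes the median log2 ratio was 0.12 with siRNA1 and 0.26 with siRNA2, while the median over all measured genes was 0.00 with each. With siRNA2, 8 of 9 genes were above the control and LEF1 alone was below it, where 45.0% of all measured genes were above and 18.8% exactly equal. Under quantile normalisation 6 were above and 3 below, with CTNNB1 and APC just below the control. By the median over probe sets 5 were above, 0 below and 4 equal. With the floor at the 70th percentile, 7 of 8 genes were above and 1 below. With siRNA1, 6 of 9 were above, 2 below and 1 equal, where 42.3% of all measured genes were above. Under quantile normalisation 5 were above and 4 below, and by the median over probe sets 5 above, 0 below and 4 equal. With the floor at the 70th percentile, 3 of 8 were above, 2 below and 3 equal. The shares of all measured genes above the control were not counted under these alternatives. Of the 23 probe sets above the floor, 15 were higher, 2 lower and 6 equal with siRNA2, and 12 were higher, 4 lower and 7 equal with siRNA1. TCF7L2 alone had 7 of these 23, of which 6 were higher with siRNA2 and 2 with siRNA1. The shares over all probe sets were not counted. The siRNA2 array also had the highest 3' to 5' ratios, 14.4 for ACTB and 1.35 for GAPDH, and the part of these in the siRNA2 values was not tested.

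**Figure D3:**
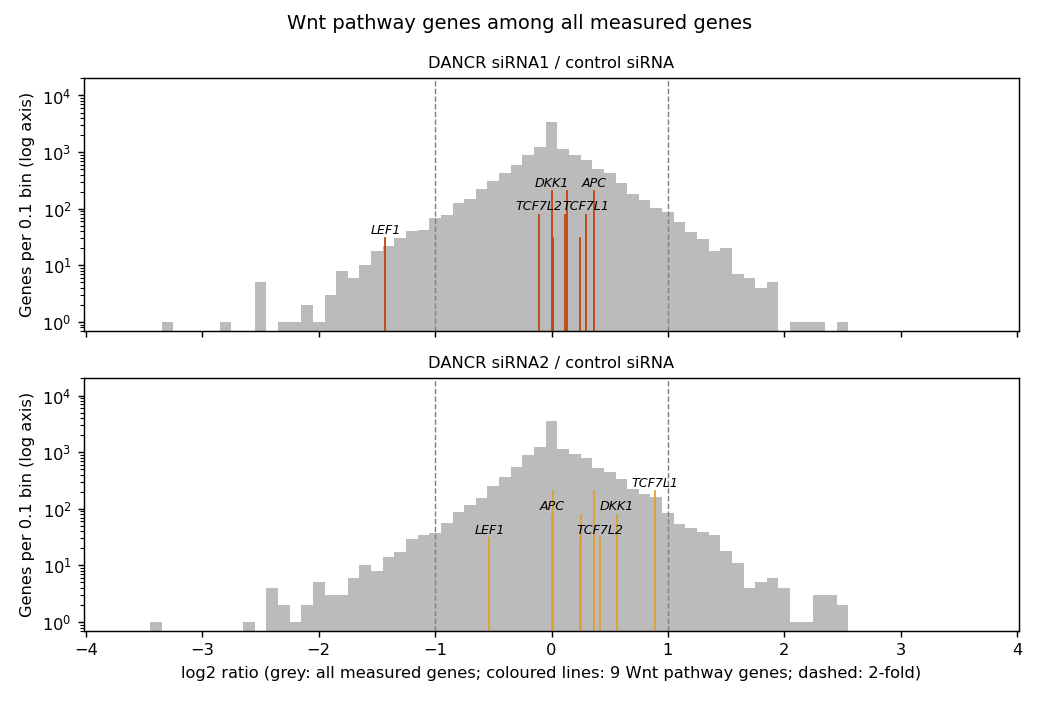
Number of measured genes (log axis) in each 0.1 bin of the log2 ratio to the control siRNA array, for DANCR siRNA1 above and DANCR siRNA2 below, with the 9 Wnt pathway genes as coloured lines (their height has no meaning) and 2-fold as dashed lines. LEF1 lies at -1.43 in the upper panel, outside the dashed lines, and at -0.53 in the lower one, where TCF7L1 lies furthest right at 0.89.

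Set against each other, the siRNA arrays differed by less than 2-fold in all 9 genes, where 3.92% of all measured genes differed by more. LEF1 differed most, 1.86-fold lower with siRNA1 than with siRNA2, a log2 difference of -0.89, and 3.42% of measured genes had a value as low or lower. TCF7L1 followed at -0.59, DKK1 at -0.56 and TCF7L2 at -0.52. APC was the only gene higher with siRNA1 than with siRNA2, at 0.36, and CTNNB1 and AXIN2 were equal on both arrays. The median of the 9 genes was -0.25, against 0.00 over all measured genes. DANCR differed by -0.11 between the same arrays.

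**Figure D4:**
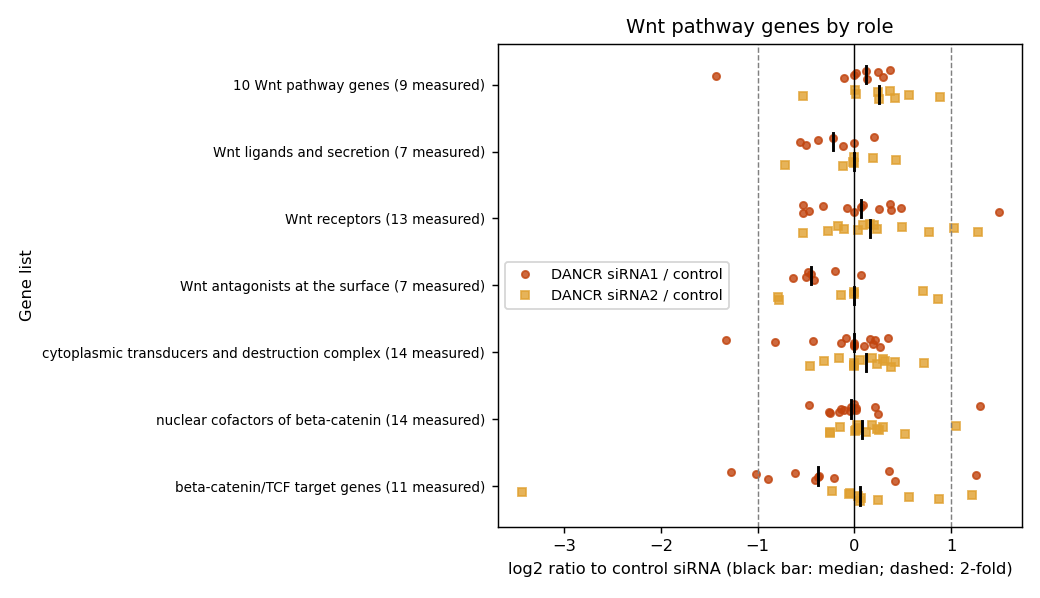
Log2 ratio to the control siRNA array of every measured gene of the 10 Wnt pathway genes and of 6 further lists of Wnt genes by role, with circles for DANCR siRNA1, squares for DANCR siRNA2, black bars for medians and dashed lines for 2-fold. The point furthest left is CCND1 with siRNA2, at -3.44, and the ROR1 points lie at 1.49 and 1.28.

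A wider set of 106 Wnt genes in 6 lists by role placed these genes in their pathway, and 66 of them were measured. With siRNA1, 6 of 66 passed the 2-fold threshold, 3 higher and 3 lower, where 3.62% of all measured genes passed it. With siRNA2, 5 of 66 did, 4 higher and 1 lower, where 3.36% of all measured genes did. The 4 that passed it the same way with both, against the same control array, were ROR1, CBY1, ID2 and CCND1, where 0.997% of all measured genes did. The lists were chosen with earlier results of these data known, so these counts beside the shares are not a test of the pathway. ROR1, a receptor for WNT5A, had 105 with siRNA1 and 90.5 with siRNA2, against 37.3 with the control siRNA, or 2.81-fold and 2.43-fold higher. Its second probe set, 205805_s_at, gave log2 ratios of 0.82 and 0.89, and the dimmest 0.00 and 0.40. CBY1, which binds beta-catenin and keeps it from LEF1 and TCF proteins, had 106 with siRNA1 and 89.5 with siRNA2, against 43.3 with the control, or 2.45-fold and 2.07-fold higher. CCND1, cyclin D1, often listed as a LEF1 and TCF target, had 430 with siRNA1 and 96.2 with siRNA2, against 1044 with the control. The order of the siRNAs in CCND1 was opposite to that in LEF1. ID2, which blocks helix-loop-helix transcription factors, was 2.39-fold higher with siRNA1 and 2.33-fold higher with siRNA2.

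Ratios given in pairs from here on are log2 ratios to the control, with siRNA1 and then with siRNA2. Genes of the lists were named by role only if their brightest probe set had the same direction with both siRNAs, so that agreement is not a result. By role, the 11 measured beta-catenin and TCF target genes had a median log2 ratio of -0.37 with siRNA1, with 8 lower and 3 higher. With siRNA2 the median was 0.06, with 4 lower and 7 higher. Of all 12436 measured genes, 4908 were lower and 5257 higher with siRNA1, and 4498 lower and 5595 higher with siRNA2. This list leaves out AXIN2, at 0.24 and 0.24, and DKK1, at 0.00 and 0.56, which are described above. FOSL1, an AP-1 factor, had 186 with siRNA1 and 362 with siRNA2, against 376 with the control, and so was 2.03-fold lower with siRNA1 alone. CD44, a hyaluronan receptor, had ratios of -0.62 and -0.04, though 229221_at gave 0.02 and 0.69. VEGFA had 0.42 and 0.06, and 0.18 and -0.11 on 212171_x_at. The 7 measured surface antagonists had medians of -0.45 and 0.00. There SFRP1, a secreted Wnt-binding protein, had ratios of -0.50 and -0.79, and 0.19 and -0.17 on its next probe set, 202036_s_at, which lay near the floor. ZNRF3, which removes Frizzled receptors from the membrane, had -0.42 and -0.78 on its single probe set. The 14 measured cytoplasmic transducers had medians of 0.00 and 0.12. CSNK1E, a casein kinase that acts on Dishevelled, had 61.0 with siRNA1 and 123 with siRNA2, against 153 with the control, at log2 ratios of -1.32 and -0.31. The second CSNK1E probe set gave -0.05 and -0.03. TNKS2, a tankyrase that marks axin for degradation, had 0.26 and 0.38, and GSK3B, the kinase of the destruction complex, 0.19 and 0.23. Dimmer GSK3B probe sets gave 0.46 and -0.03 on 209945_s_at, -0.41 and -0.03 on 226183_at, and 0.00 with both siRNAs on 240562_at.

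The 13 measured receptors had medians of 0.07 and 0.16. FZD7, a Frizzled receptor, had ratios of 0.49 and 1.03, with a control intensity of 13.8, near the floor. Its other probe set, 203705_s_at, lay below the floor with the control siRNA and gave 0.25 and 0.52. RYK, a Wnt-binding receptor, had -0.53 and -0.53, and PTK7, a co-receptor, -0.46 and -0.28. The 7 measured ligands and secretion factors, of 24 listed, had medians of -0.22 and 0.00. WNT7B had 60.5 with siRNA1 and 51.9 with siRNA2, against 85.5 with the control, at ratios of -0.50 and -0.72. Its other probe set, 217681_at, gave -0.12 and -0.23. WNT5B had -0.57 and -0.02, and WNT8B, near the floor, -0.12 and -0.12. The 14 measured nuclear cofactors had medians of -0.04 and 0.08. TLE4, a corepressor of TCF proteins, had 0.24 and 0.52, its relative TLE3 -0.25 and -0.25, and the acetyltransferase CREBBP 0.21 and 0.29. The next CREBBP probe set, 228177_at, gave -0.21 and -0.09.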

How the data were processed

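Total RNA of UM-UC-3 cells was amplified to biotin-tagged cRNA for Affymetrix arrays, per the labels' protocols. The deposited table holds 1 intensity per probe set and array on a linear scale, brought to a common scale by the authors with a method not given in the sources used here; the submitters' processing notes name GCOS 1.4. Probe sets were named from the array annotation, of which 41091 named a single gene, 1801 several and 11777 none. Values below the 50th percentile of all values were raised to it, the probe set of highest mean stood for its gene, and log2 ratios were called at 2-fold. The genes and lists were chosen with earlier results of these data known. Named genes of the wider lists were those 2-fold the same way with both siRNAs. Up to 3 more per list were taken among genes with the same direction with both siRNAs, by the largest smaller absolute ratio. Agreement between the siRNAs in these genes is therefore the rule of choice and not a result. The procedure was tested on simulated data. Alternatives covered scaling, floor, probe set choice and threshold. The array files name no build, so the only genome positions given are those of the RefSeq promoter windows. Python 3.11.15, numpy 2.4.6, pandas 2.3.3 and matplotlib 3.10.9 were used.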

Additional observations from a re-analysis of the deposited data

Results flagged for a closer look

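TCF7L2 lay on opposite sides of the control with the 2 siRNAs on its brightest probe set, at a log2 ratio of -0.11 with siRNA1 and 0.42 with siRNA2, which gave a difference of -0.52 between the siRNA arrays. Each side is 1 array, and the difference was not tested. On 2 of its other probe sets, 216035_x_at and 216511_s_at, the siRNA1 ratio was 0.07 and 0.04, on the same side as siRNA2.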

How the results depend on the processing

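No paired analysis was possible because each group had 1 array, and for the same reason no array could be left out. The count of 1 gene with siRNA1 (LEF1) was 0 by the median over probe sets, without _s_at and _x_at probe sets (LEF1 and TCF7L1 then had no value) and at 3-fold. In the same order, 1.71%, 3.41% and 0.482% of all measured genes passed there. The median over the LEF1 probe sets could not reach 2-fold lower, because the dim ones lay near or below the floor. At 1.5-fold, 1 gene passed with siRNA2 (TCF7L1) and 2 between the siRNAs (LEF1 and TCF7L1), where 13.0% and 13.8% of all measured genes did. The median of the genes with siRNA1 was 0.00 with the floor at the 70th percentile and 0.012 by the median over probe sets and without _s_at and _x_at probe sets; with siRNA2 it was 0.14 by the median over probe sets. Wider Wnt genes at 2-fold with siRNA1 numbered 3 by the median over probe sets (1.71% of all measured genes), 10 at 1.5-fold (13.2%) and 0 at 3-fold (0.482%). With siRNA2 they numbered 3 under quantile normalisation (3.22%) and without _s_at and _x_at probe sets (3.41%), 2 by the median over probe sets (1.72%), 13 at 1.5-fold (13.0%) and 1 at 3-fold (0.547%). Of 120 single-gene values under the alternatives, 107 moved by less than 0.1 on the log2 scale and 13 by more. In 3 the sign differed from the value reported, all within 0.06 of 0 under quantile normalisation (CTNNB1 with both siRNAs, APC with siRNA2). Low intensity limits AXIN2, AXIN1 and TCF7L1 most.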

Other observations

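The following wider Wnt genes were chosen after their values were seen. All 3 Dishevelled genes, which carry the signal from Frizzled receptors to the destruction complex, were below the control with siRNA1 and above it with siRNA2 on their brightest probe sets. DVL1 had 76.3 with siRNA1 and 128 with siRNA2, against 103 with the control siRNA. DVL2 had 77.2 with siRNA1 and 182 with siRNA2, against 136 with the control, and its other probe set gave log2 ratios of -0.29 and 0.00. DVL3 had 92.9 with siRNA1 and 168 with siRNA2, against 102 with the control, while its other probe set had 23.9 on all 3 arrays.

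The same order held for TPBG, a surface inhibitor of Wnt signalling, for RUNX2, a bone transcription factor, and for MYC. It was not particular to these genes. Other wider Wnt genes had it too, among them WNT10B, WLS, FZD2, DKK3, BCL9L, TLE2, EP300, JUN, SOX9 and PPARD. The share of all measured genes with this order was not counted. TPBG had 101 with siRNA1 and 287 with siRNA2, against 157 with the control. RUNX2 had 20.1 with siRNA1 and 68.2 with siRNA2, against 37.2 with the control, on the brighter of the 2 probe sets above the floor; the other had 12.5 on all 3 arrays. MYC had 357 with siRNA1 and 684 with siRNA2, against 463 with the control. Of the 66 measured wider Wnt genes, 5 were at least 2-fold apart between the siRNA arrays: TPBG, RUNX2, DVL2 and CSNK1E were lower with siRNA1, and CCND1 was higher, where 3.92% of all measured genes were that far apart.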
